A study of Mus musculus with 2 samples.

Results

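The open starts of long noncoding RNA (lncRNA) genes were examined in adrenal gland by DNase-seq, an assay in which nuclei are treated with DNase I and accessible chromatin is recognised by its many cuts. Joining the overlapping peaks of 2 libraries gave 143793 regions. A region was kept if a peak of each library lay within 500 bp of a transcript start of a gene annotated as lincRNA or antisense, and if it lay more than 1 kb from every start of a protein-coding transcript. This left 1066 regions, 1.62% of the 65778 regions that held a peak of each library. They belonged to 911 genes. Of the regions, 755 lay at starts of lincRNA genes only, 306 at starts of antisense genes only and 5 at both.

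The tissue came from male adult B6CASTF1/J mice aged 18 to 20 months, an F1 hybrid strain. There was 1 group of 2 libraries, given in the labels as biological replicates 1 and 2, with no treatment and no other genotype, so there was no comparison between conditions. The labels give them separate tissue samples but 1 donor entry, so whether they came from separate animals is not stated and the spread between them may be technical. Adrenal cortex makes steroid hormones and the medulla makes catecholamines. The tissue label was checked by peaks of both libraries at defining genes. Starts of 5 of 5 cortex genes (Star, Cyp11a1, Cyp11b1, Nr5a1 and Scarb1) and of 3 of 5 chromaffin genes of the medulla (Chga, Chgb and Slc18a1) were accessible, while Th and Dbh were not. None of 4 hepatocyte genes and neither of the 2 lymphocyte genes had an accessible start, whereas 3 of 3 neuronal genes (Grin1, Gad1 and Bdnf) had one.

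LncRNAs are transcripts that are usually made by RNA polymerase II and spliced, but that code for no known protein. A lincRNA lies between protein-coding genes, and an antisense gene is transcribed from the strand opposite another gene. Active starts of both kinds lie in accessible chromatin, as those of protein-coding genes do, and many lncRNAs are transcribed away from a neighbouring coding promoter. The distance of more than 1 kb from coding starts set such shared promoters aside here. Peaks show that chromatin was accessible, not that RNA was made.

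The sequences below are those of the 4 tallest regions, then of 4 starts chosen after their values were seen. These 4 belong to known lncRNAs or hold a known consensus under a footprint. The tallest region, at Gm42418, overlaps an annotated ribosomal RNA gene. A footprint is a short stretch inside accessible chromatin where few cuts were seen, as occurs under a bound protein. Each sequence is 300 bp of the GRCm38 reference at the centre of a region, written 5′ to 3′ in the direction of the gene. Capitals mark bases that lay under a footprint in both libraries. The alleles of the hybrid mice were not examined.
Gm42418 (chr17:39846690-39846989, + strand): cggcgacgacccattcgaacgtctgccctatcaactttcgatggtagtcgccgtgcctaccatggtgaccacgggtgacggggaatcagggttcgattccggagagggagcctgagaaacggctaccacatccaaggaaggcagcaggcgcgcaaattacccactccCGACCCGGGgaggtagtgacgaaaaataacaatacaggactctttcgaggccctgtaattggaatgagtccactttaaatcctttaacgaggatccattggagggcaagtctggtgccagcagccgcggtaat
Gm15408 (chr5:149006740-149007039, + strand): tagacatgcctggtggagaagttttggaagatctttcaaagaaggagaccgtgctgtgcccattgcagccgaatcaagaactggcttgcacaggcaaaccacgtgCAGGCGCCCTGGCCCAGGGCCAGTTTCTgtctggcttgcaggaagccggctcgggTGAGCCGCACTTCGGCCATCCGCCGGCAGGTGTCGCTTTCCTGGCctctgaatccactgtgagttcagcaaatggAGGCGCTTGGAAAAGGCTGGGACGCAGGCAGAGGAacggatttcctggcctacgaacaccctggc
9430037G07Rik (chr9:88599490-88599789, − strand): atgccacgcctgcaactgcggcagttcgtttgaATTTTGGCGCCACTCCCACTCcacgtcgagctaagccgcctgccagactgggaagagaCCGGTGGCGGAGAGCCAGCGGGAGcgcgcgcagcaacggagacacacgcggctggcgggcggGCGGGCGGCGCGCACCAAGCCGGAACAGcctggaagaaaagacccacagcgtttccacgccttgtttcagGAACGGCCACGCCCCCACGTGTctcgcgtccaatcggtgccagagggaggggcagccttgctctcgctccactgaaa
Tmem250-ps (chr2:26140370-26140669, − strand): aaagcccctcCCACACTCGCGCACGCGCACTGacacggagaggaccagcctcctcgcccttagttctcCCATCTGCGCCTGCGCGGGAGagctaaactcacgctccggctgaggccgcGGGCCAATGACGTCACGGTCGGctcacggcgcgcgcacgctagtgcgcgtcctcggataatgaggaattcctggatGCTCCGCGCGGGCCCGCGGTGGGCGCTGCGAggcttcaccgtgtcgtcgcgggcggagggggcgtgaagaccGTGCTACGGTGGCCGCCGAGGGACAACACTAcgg
Neat1 (chr19:5845340-5845639, − strand): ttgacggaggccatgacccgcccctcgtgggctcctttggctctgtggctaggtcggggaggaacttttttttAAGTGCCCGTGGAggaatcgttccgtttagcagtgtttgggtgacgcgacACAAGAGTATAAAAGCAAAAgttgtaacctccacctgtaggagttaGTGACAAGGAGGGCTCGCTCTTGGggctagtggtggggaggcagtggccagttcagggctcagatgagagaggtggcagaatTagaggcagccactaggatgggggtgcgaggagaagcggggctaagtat
Meg3 (chr12:109540850-109541149, + strand): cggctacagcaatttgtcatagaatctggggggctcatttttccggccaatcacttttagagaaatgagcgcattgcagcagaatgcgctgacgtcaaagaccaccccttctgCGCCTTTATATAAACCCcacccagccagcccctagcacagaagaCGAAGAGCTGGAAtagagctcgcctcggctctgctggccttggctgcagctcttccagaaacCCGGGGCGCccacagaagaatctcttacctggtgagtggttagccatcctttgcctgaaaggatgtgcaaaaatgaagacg
Pvt1 (chr15:62037820-62038119, + strand): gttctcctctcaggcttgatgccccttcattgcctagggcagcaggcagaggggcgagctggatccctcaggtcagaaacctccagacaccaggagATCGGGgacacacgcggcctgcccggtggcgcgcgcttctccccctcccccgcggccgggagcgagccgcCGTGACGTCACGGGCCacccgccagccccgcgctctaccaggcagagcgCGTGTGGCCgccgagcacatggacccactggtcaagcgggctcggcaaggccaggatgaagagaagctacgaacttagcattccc
Tspan32os (chr7:143008080-143008379, − strand): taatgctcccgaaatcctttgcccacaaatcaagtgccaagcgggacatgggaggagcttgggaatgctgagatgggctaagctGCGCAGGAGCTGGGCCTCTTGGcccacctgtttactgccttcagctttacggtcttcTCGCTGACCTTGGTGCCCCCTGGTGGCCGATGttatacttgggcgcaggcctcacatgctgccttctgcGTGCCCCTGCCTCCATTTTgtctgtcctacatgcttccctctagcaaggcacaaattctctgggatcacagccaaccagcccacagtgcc

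The capitals cover very different shares of these windows, from 9 bases at Gm42418 to 127 at Tmem250-ps. At Neat1 the annotated start is base 162, and the capitals hold TATAAA, the core of the TATA box that positions the polymerase, centred 28.5 bp upstream. Meg3 starts at base 152 and has TATAAA under footprints centred 27.5 bp upstream. At Pvt1, whose start is base 167, the palindrome TGACGTCA, the cyclic AMP response element (CRE) bound by CREB and ATF proteins, lay centred 5.5 bp downstream. At Tmem250-ps, whose start is base 149, a CRE lay centred 19.5 bp upstream and shared bases with CCAATGA, an element of the type bound by NFY, within 1 run of capitals. Matches to the NRF1 consensus lay centred 69.5 and 125.5 bp upstream. At Tspan32os, a match to the consensus of CTCF, the insulator protein, and one to CAAGGTCA, the element bound by the adrenal and gonadal regulator NR5A1 (printed here as its reverse complement), stood in 1 run of capitals 185.5 and 197.5 bp upstream of the start.

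The tallest region, at Gm42418 on chr17:39846781-39846900, had a height of 72.2 in replicate 1 and 79.4 in replicate 2. Height is the authors' depth-normalised signal of the tallest peak in the region. This region overlaps the annotated ribosomal RNA gene CT010467.1, the only one of the 1066 to overlap such a gene, and how reads from ribosomal repeats were placed was not examined. Without it the median height over the regions was 1.18, as it was with it. The next tallest were far lower and close to one another. Gm15408 had heights of 12.8 and 11.0, 9430037G07Rik of 11.7 and 10.8, and Tmem250-ps of 11.5 and 9.69. Gm10010 followed with 9.36 and 10.9.

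Of the 12 tallest regions, 11 lay at lincRNA genes, 11 were CpG-rich and 11 lay between protein-coding genes. Over all 1066 regions, 70.8% lay at lincRNA genes only, 27.0% were CpG-rich and 75.8% lay between protein-coding genes. CpG-rich means that the 300 bp at the centre had at least 50% G and C and an observed to expected ratio of CpG of at least 0.6, as in the CpG islands where most housekeeping genes start. The exception was Gm15408, which was not CpG-rich. The antisense member was Snhg7os, with heights of 9.07 and 8.86 and a CTCF consensus under footprints in both libraries. D730045B01Rik, with 8.75 and 8.69, lay in an intron of Gm42906. Footprints of each library were more frequent when only peaks above the median height were kept (94.5% of regions against 83.1%). How far this bears on the next count, over regions chosen by height, was not tested. In 8 of the 12, some known consensus was covered by footprints of both libraries, against 22.5% of all 1066 regions. Gm20732 (8.96 and 9.08) held those of CRE, NRF1 and RFX, Gm33195 (11.1 and 8.02) a CTCF and an E-box consensus, and 1700096K18Rik (8.16 and 9.68) those of NFY and SP/KLF. Gm31812 had heights of 10.2 and 7.10. Gm11205 closed the list with 9.47 and 7.56.

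At the other end, the lowest mean height was 0.160, at 1700110I01Rik, with 0.223 in replicate 1 and 0.0975 in replicate 2. Gm40987 had 0.186 and 0.202, 9330158H04Rik 0.234 and 0.210, and Gm9916 0.244 and 0.225. Tsix, the antisense partner of Xist, was also among the 5 lowest, with 0.260 and 0.202. Each height was a whole multiple of a step of 0.00531 in replicate 1 and of 0.00750 in replicate 2. The regions had a median of 198 and 170.5 steps, and the lowest had 35 and 13. What a step stands for is not given in the sources used here, so the counting error of a height is unknown, and low regions rest on few steps.

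Of 8813 lincRNA and antisense genes, 911 (10.3%) had at least 1 such region. Among lincRNA genes it was 642 of 5854 (11.0%, exact Clopper-Pearson 95% interval 10.2 to 11.8%), and among antisense genes 269 of 2959 (9.09%, interval 8.08 to 10.2%). These intervals cover counting error only. A peak of both libraries within 500 bp of any start, coding starts nearby or not, was found at 15.8% of lincRNA genes, 30.5% of antisense genes and 63.0% of 21853 protein-coding genes. By this wider count the antisense share was the larger of the lncRNA types. Of the 902 accessible antisense genes 633 were accessible only near a coding start, against 281 of 923 lincRNA genes. Among genes with a start more than 1 kb from coding starts the shares were 12.4% for antisense and 11.6% for lincRNA genes. No test was made between the types.

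Genes with an accessible start had a median of 3 exons. So did genes with a start more than 1 kb from coding starts but no peak of both libraries near any start. A peak of 1 library only was allowed in these. Transcript support level 1, the best-supported class of the annotation, was held by 47.4% of the former and 37.2% of the 6639 latter. By chromosome the share of lncRNA genes with an open start ran from 6.38% on chromosome 8 to 18.3% on chromosome 17 among the autosomes, with 7.80% on the X. On chromosome Y there was none among 550 genes, in male tissue, and whether reads could be placed there was not examined.

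Most of the genes, 753, had 1 region, 136 had 2 and 22 had 3 or more. Ftx, an activator of Xist at the X-inactivation centre, had 6, and AI480526, Frmd8os and Lncpint had 4 each. The regions of 1 gene differed widely in height. At Ftx the tallest had heights of 2.62 and 2.78 and held the start at its centre, and the other 5 had mean heights of 0.514 to 1.05. Lncpint, a p53-responsive lncRNA, had 5.39 and 4.95 at its tallest region and mean heights of 1.41, 1.71 and 2.94 at the others. At Gm26901 a pair of regions near a start reached 6.93 and 7.85, and 6.84 and 5.70, while the third had 1.77 and 1.72. 4932412D23Rik, a lincRNA on the strand opposite Zbtb20, had mean heights of 5.34 and 5.80 at a pair of regions, and a lower one with 3.09 and 2.10. By contrast, the 3 regions of Gm30085 all had mean heights between 0.363 and 0.511. Regions of 1 gene share their surroundings and are not independent, and 31 regions counted for more than 1 gene.

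The median height was 1.18 (quartiles 0.695 and 2.29), with 1.05 in replicate 1 and 1.28 in replicate 2. It rested on the choice of regions: when a peak of replicate 1 alone was asked for, the median was 0.770, with a peak of replicate 2 alone it was 0.840, and with the authors' shorter peak lists it was 1.80. The same median was 2.53 over 19107 regions within 500 bp of a protein-coding start and 0.972 over 41539 regions more than 1 kb from the starts of both kinds. The last class is called regions away from starts. It may still hold starts of other gene types and of noncoding transcripts of protein-coding genes, which were not set aside. In replicate 1 the 3 medians were 1.05, 2.53 and 0.844, and in replicate 2 they were 1.28, 2.52 and 1.09, so their order was the same in both libraries. Only 236 of the lncRNA starts (22.1%) stood above the median of the coding promoters. lincRNA and antisense starts had similar medians, 1.14 and 1.21. In replicate 1 these were 1.051 and 1.057, and in replicate 2 they were 1.26 and 1.34. No test was made between the types. The regions were 220 bp wide in the median, against 280 and 200 bp.

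Base composition went with height. The share of CpG-rich regions was 27.0% among lncRNA starts (interval 24.4 to 29.8%), 74.5% among coding promoters and 6.41% away from starts. CpG-rich lncRNA starts (288) had a median height of 2.21 in replicate 1 and 2.10 in replicate 2, and the other 778 had 0.903 and 1.13. This gap was larger than the spread between libraries, which was 0.083 (SD) in the first and 0.160 in the second. CpG-rich coding promoters had a median over both libraries of 3.37, CpG-rich lncRNA starts of 2.24 and CpG-rich regions away from starts of 1.45. Without CpG richness the 3 medians were 1.15, 1.01 and 0.953, so the classes lay much closer. These are descriptions of regions, without a test between classes.

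**Figure D1:**
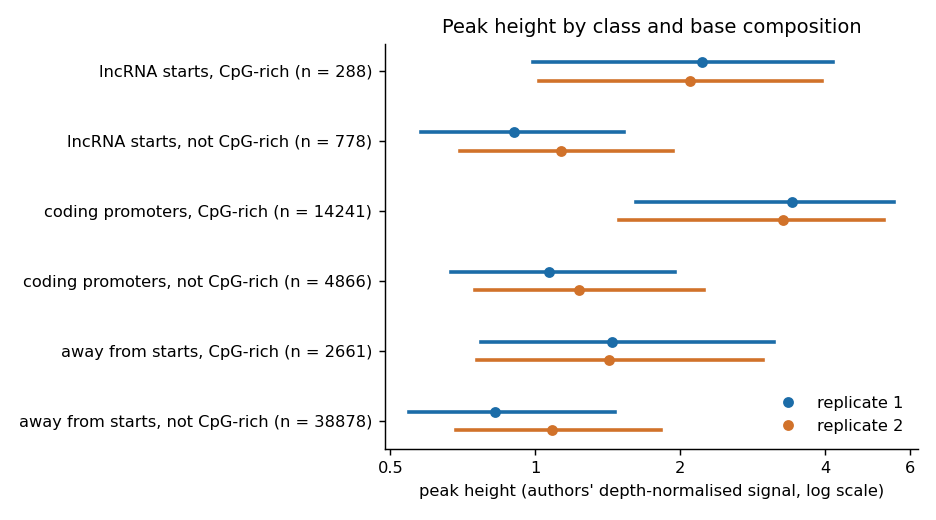
Peak height (x axis, depth-normalised signal on a log scale) of open lncRNA starts, coding promoters and regions away from starts, each split by CpG richness. Points are medians over regions in replicate 1 (blue) and replicate 2 (orange), and bars run from the lower to the upper quartile. CpG-rich lncRNA starts (medians 2.21 and 2.10) lie between CpG-rich coding promoters and CpG-rich regions away from starts, and the 3 classes that are not CpG-rich lie close together.

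Distance to coding genes moved with both. The 181 lncRNA starts 1 to 5 kb from a protein-coding start had a median height of 1.58, and 32.0% were CpG-rich. The 517 at 5 to 50 kb had 1.21 and 29.2%, and the 368 farther off had 0.909 and 21.5%. The median distance was 29.4 kb. The nearest protein-coding gene had a peak of both libraries within 1 kb of a start for 80.2% of the regions, against 64.5% of all protein-coding genes. The first is a share of regions, in which a gene can count more than once, and the second a share of genes. The neighbours of regions away from starts were not examined. The share of regions was 84.5% at 1 to 5 kb, 77.6% at 5 to 50 kb and 81.8% beyond 50 kb, so it did not move steadily with distance. Most regions, 808 (75.8%), lay between protein-coding genes, 180 in an intron and 61 in an exon of a gene on the opposite strand. A place inside a protein-coding gene was found for 69.9% of antisense and 5.70% of lincRNA starts. At 1 to 5 kb, 80 of 181 faced away from the coding start, 79 pointed towards or over it, and 22 ran on the same strand.

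Accessible positions were most frequent close to the annotated start, though most regions did not hold it. The region held the nearest start in 494 cases (46.3%), and the centre was within 100 bp of it in 413. The centre lay upstream in 640 and downstream in 424. The share of starts with a false discovery rate of 0.001 or less in both libraries, a per-position value deposited by the authors, was highest 50 bp upstream, at 41.4% of 955 distinct nearest starts. It was 12.1% at 500 bp upstream, 12.5% at 500 bp downstream and 2.93% at 1500 bp upstream. Starts at CpG-rich regions reached 71.0% and those at other regions 31.3%. Coding starts reached 80.8%, and there the mean over the 500 bp downstream (56.9%) exceeded that upstream (50.9%). For lncRNA starts the upstream mean was the larger (25.03% against 20.3%). The 2 means were close at CpG-rich lncRNA starts (43.7% upstream, 42.7% downstream) and farther apart at the others (18.8% and 13.3%). Regions were selected for lying near these starts, so the rise towards the start is in part a property of the selection, and no test was made.

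**Figure D2:**
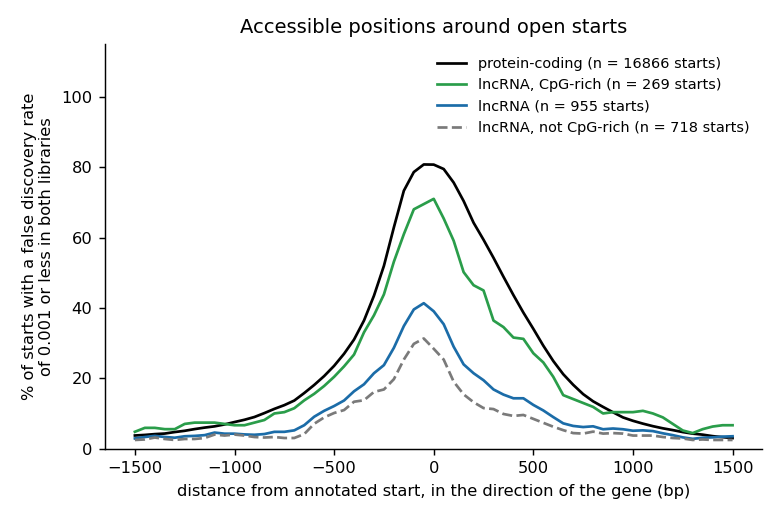
Percent of annotated starts (y axis) whose position at each distance in the gene's direction (x axis, bp) had a false discovery rate of 0.001 or less in both libraries. Lines show the nearest starts of coding promoters (black), of all open lncRNA starts (blue) and of those at CpG-rich (green) or other (grey, dashed) regions, and a start near regions of both kinds counts in both. The CpG-rich lncRNA line peaks at 71.0%, below the coding line at 80.8%, and the other lncRNA starts peak at 31.3%.

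At the edge of the 500 bp rule, the 54 regions 400 to 500 bp from the nearest start had a median height of 1.20. This was close to the 1.21 of the 494 regions that held a start. The 82 regions just outside the rule, more than 500 and up to 600 bp away, had 0.925. No test was made between these groups. Some regions sit at starts of further kinds: 92 lay within 500 bp of a start of another gene type and 30 within 500 bp of a noncoding transcript of a protein-coding gene.

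Known lncRNAs were grouped by what they do. Of 13 lncRNAs of nuclear bodies or of high abundance, 8 had an open start, 2 (Panct2 and Tug1) had a peak only near a coding start, and Lncenc1, Miat and Pantr1 had no peak of both libraries. The background is that 10.3% of all lincRNA and antisense genes had an open start. Malat1, the abundant RNA of nuclear speckles, had heights of 8.85 and 7.53, the highest in the lists, in a region that was not CpG-rich. Neat1, the scaffold of paraspeckles, had 6.22 and 5.65 at its start shown above. A neighbouring region 287 bp into Frmd8os, which runs on the opposite strand and also lies within 500 bp of a Neat1 start, had 6.35 and 6.62. Pvt1, which lies beside Myc, had 2.61 and 2.54 at its first start and mean heights of 0.507 and 0.532 at the others. Trp53cor1, a p53-induced lncRNA near Cdkn1a, had 1.89 and 2.43. Dnm3os, which hosts microRNAs in an intron of Dnm3 on the opposite strand, had 0.765 and 1.25. Rmst, a lncRNA known from neurogenesis, was low, with 0.340 and 0.352. By the tallest region of each gene, Malat1, Neat1, Lncpint and Pvt1 stood above the median of coding promoters in both libraries. Rmst stood below the median of all lncRNA starts in both. Over all lists, by the same measure, 8 of 20 genes stood above the first and 6 below the second in both libraries. Both medians are over single regions, so genes with several regions had more chances to stand high.

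Small nucleolar RNA host genes carry snoRNAs in their introns. Of 6 such genes of these types, 3 had an open start and Snhg10, Snhg18 and Snhg9 had peaks only near a coding start, so none lacked a peak. Snhg6 had heights of 4.33 and 3.46, with an ETS consensus (CCGGAAG) under footprints 53 bp upstream of the start. Snhg12 had 3.39 and 3.92 and Snhg20 3.07 and 3.22. All 3 were CpG-rich and above the coding median of 2.53 in both libraries.

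Among 8 microRNA host genes 3 had an open start: Mir155hg (0.929 and 1.06 in the region upstream of its start, 1.38 and 0.907 in the next), Mir142hg (1.00 and 0.832) and Carmn, the host of the smooth muscle microRNAs miR-143 and miR-145 (0.913 and 0.990). Mir142hg and Mir155hg are known from blood cells. In whole tissue, few cells with a tall peak and many cells with a low one cannot be told apart. Mir17hg, Mir9-3hg, Mirt1 and both Mir124 hosts of the list had no peak of both libraries.

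Of 11 imprinted or X-inactivation genes, 6 had an open start. Kcnq1ot1, the paternally expressed antisense RNA of Kcnq1, had heights of 2.29 and 2.85, and Airn, that of Igf2r, had 1.91 and 1.85. Both lie in introns of the genes they oppose. Meg3, a maternally expressed lncRNA, had 1.59 and 1.04 at the TATA box start shown above and 1.03 and 0.690 in a region farther into the gene, so both were higher in replicate 1. Jpx had 0.977 and 1.12 at the taller of its regions. Xist had no peak of both libraries near a start in this male tissue, and neither did H19, Mirg, Nespas or Igf2os. The lack of a peak was defined by the longer list of each library, and a start below its threshold is not shown to be closed.

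Of 11 lncRNAs near developmental transcription factor genes, 1 (9.09%), Halr1 with 0.419 and 0.330, had an open start, a share close to the 10.3% of all lncRNA genes. Emx2os, Hotairm1 and Wt1os had a peak only near a coding start, and 7, Hotair and Hottip among them, had no peak of both libraries. Of 264 genes named for the opposite strand of a coding gene (symbols ending in os and a number or none), 33 (12.5%) had an open start, also close to that share. Zmiz1os1 was the tallest (7.44 and 6.10), 1324 bp from the start of Zmiz1. Rab10os had 7.01 and 6.30, Tspan32os 6.37 and 6.47, Kif16bos 5.87 and 5.83, and Hoxd3os1 5.71 and 5.57. Tvp23bos had 5.73 and 5.52, Epb41l4aos 5.79 and 4.79, and Tbx3os2 3.47 and 4.24. A CTCF consensus was footprinted in both libraries at Rab10os, Tspan32os, Hoxd3os1, Tvp23bos and Tbx3os2. The lists were made with earlier results of these data known, and their counts support nothing beyond themselves.

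**Figure D3:**
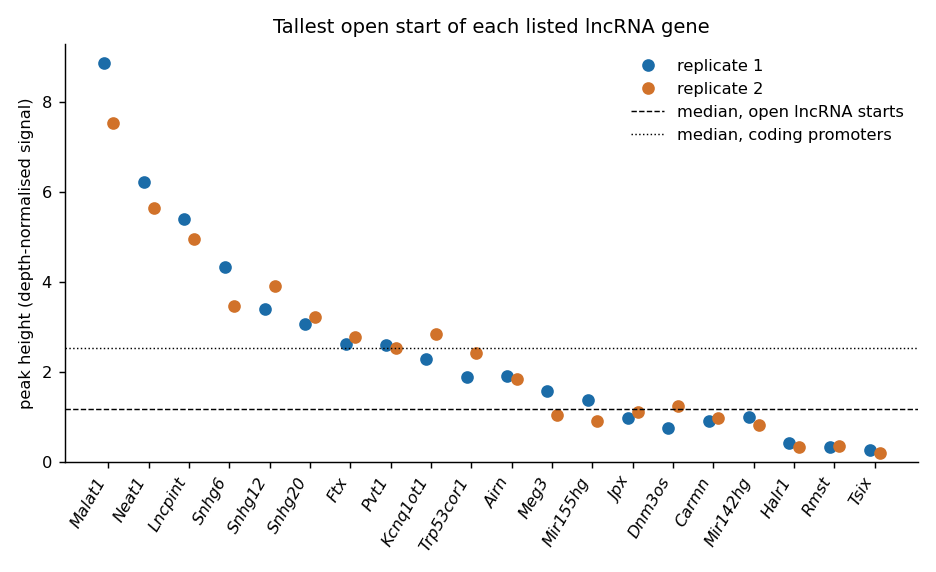
Peak height (y axis, depth-normalised signal) of the tallest open start of each of 20 listed lncRNA genes (x axis) in replicate 1 (blue) and replicate 2 (orange). Lines mark the medians over all open lncRNA starts (1.18, dashed) and over coding promoters (2.53, dotted), and Malat1, at 8.85 and 7.53, stands highest.

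Only 8 of the 1066 regions lay within 50 kb of a listed gene of adrenal function. Of 65 listed genes of steroidogenesis, zonation, catecholamine synthesis, stress response and clock, 5 (7.69%) had an open lncRNA start within 50 kb, against 1196 of 21853 protein-coding genes (5.47%). The share of the list is near that background, rests on 5 genes and was not tested. No such region lay within 50 kb of Star, Cyp11a1 or Nr5a1. The nearest was at Gm48159, 1007 bp from a start of Rspo3, the capsule signal that maintains the zona glomerulosa, in an intron of it on the opposite strand, and it was low (0.276 and 0.390). D730003I15Rik, 6282 bp from Atf3, a stress-induced transcription factor, was tall (6.64 and 6.57), with an SP/KLF consensus under footprints 20 bp upstream. Around Fosb, an immediate early gene, lay Gm26802 with 2.78 and 3.14 at its taller region, Gm44698 with 2.51 and 2.29, and D830036C21Rik with 5.81 and 3.77. Gm28382, 24077 bp from the clock gene Per2, had 4.62 and 4.13 and a CTCF consensus under footprints. 4933407I05Rik, 48505 bp from Fdx1, the ferredoxin of steroid synthesis, had 0.611 and 0.645.

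Footprints were nearly as common as in the other classes. A footprint of each library lay in 886 of the 1066 lncRNA starts (83.1%, interval 80.7 to 85.3%), in 84.8% of coding promoters and in 86.0% of regions away from starts, and 36 lncRNA starts had none in either library. Their density was 10.2 per kb in replicate 1 and 10.8 in replicate 2. The most were found in wide regions. 9530027J09Rik, 1060 bp wide, had 16 and 11, Gm6410 had 12 and 11, 5430416N02Rik 9 and 12, Gm26796 10 and 11, and Gm44066 9 and 9. None of the 5 widest regions was among the 12 tallest. The widest of all, Gm14964 with 1200 bp, had heights of 1.04 and 1.10, and Gm3294 with 1020 bp had 0.685 and 0.607.

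A search on both strands for 18 consensus sequences in the 300 bp at each centre found 240 lncRNA starts (22.5%) with a match of which at least 50% of the bases lay under a footprint in each library. CTCF, the insulator and loop anchor protein, led with 136 (12.8%), against 5.46% of coding promoters and 21.5% of regions away from starts. Without regard to footprints its consensus stood in 18.9%, 15.8% and 28.4%. The 136 had a median height of 2.65, the other 930 of 1.05, and only 27 of the 136 were CpG-rich. Footprints of any kind in each library were also more frequent when only peaks above the median height were kept (94.5% against 83.1%). How far this link of footprints to height makes up the gap was not tested. Promoter-type elements were ordered the other way. GGGGCGGGG, the GC box of SP and KLF factors, was footprinted in 3.28% of lncRNA starts, 12.2% of coding promoters and 0.823% of regions away from starts. Its 35 lncRNA starts had a median height of 4.06. For the NRF1 consensus the shares were 1.03%, 6.64% and 0.308%, for CCGGAAG of ETS factors 1.03%, 4.20% and 0.221%, and for TGACGTCA 1.03%, 2.25% and 0.262%. CCAAT boxes (CCAAT followed by CA, CG, GA or GG) were footprinted in 1.78%, 4.11% and 0.674%. In each of these, lncRNA starts lay between coding promoters and regions away from starts.

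**Figure D4:**
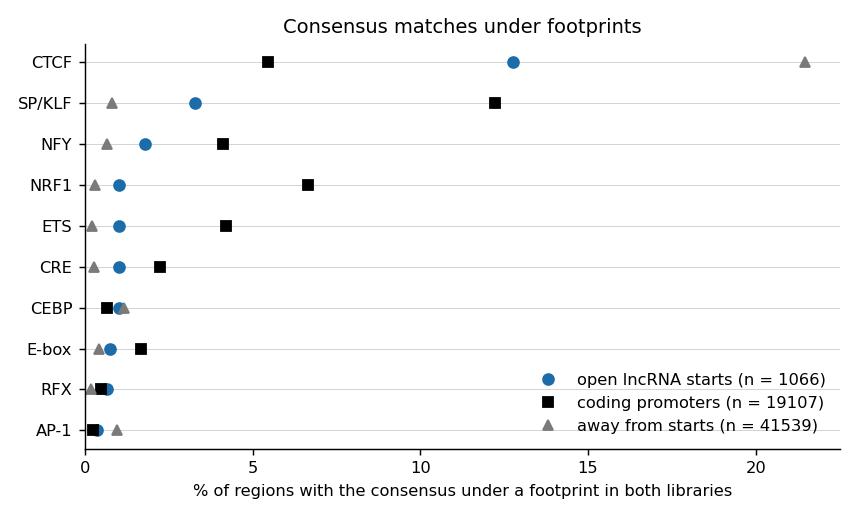
Percent of regions (x axis) with a match to each consensus (y axis) under a footprint in both libraries, for open lncRNA starts (blue circles), coding promoters (black squares) and regions away from starts (grey triangles). CTCF is at 12.8% of lncRNA starts, between 5.46% and 21.5%, and SP/KLF at 3.28%, between 12.2% and 0.823%.

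The footprinted elements lay at different distances from the annotated starts. CRE matches were a median of 65.5 bp from the start over 11 regions, ETS matches 87 bp over 11 and CCAAT boxes 98 bp over 19, whereas CTCF matches were 214 bp away. TGACGTCA was footprinted at Tmem250-ps, Gm20732, 1810044D09Rik (44.5 bp upstream, mean height 6.62), Pvt1 and 7 others. TATAAA was footprinted at 6 regions (0.563%, against 0.524% of all 65778 shared regions). On the gene's strand it was footprinted at Neat1, Meg3 and 2610035D17Rik (30.5 bp upstream, mean height 3.09). CAAGGTCA was footprinted at 2 lncRNA starts (0.188%, against 0.251% of all shared regions), Tspan32os and A930006L05Rik (81.5 bp upstream, mean height 2.84). Without regard to footprints it stood in 1.97% of the windows, in 1.02% of those of coding promoters and in 3.53% of those away from starts. TGANTCA, the AP-1 element, was footprinted at 4 (0.375%, against 0.690% of all shared regions). Few starts had a TATAAA on their own strand 20 to 40 bp upstream, 10 of 1282 (0.780%), against 0.672% of coding starts at shared peaks and 1.09% of lncRNA starts with no peak. A pyrimidine followed by a purine, the usual pair at an initiation site, stood at 51.3% of these starts (interval 48.6 to 54.1%), at 48.0% of the coding starts and at 49.4% of the lncRNA starts with no peak. A match is a description of the sequence, and a footprint does not name the bound protein.

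Heights in the libraries were alike in order. Pearson's r of log2 heights was 0.93 and Spearman's rho 0.92 across the 1066 lncRNA starts, and over all 65778 shared regions they were also 0.93 and 0.92. Regions of the same 2 libraries are not independent replicates. Height was more than 1.5-fold higher in replicate 1 at 37 lncRNA starts (3.47%, background 3.26% of all 65778 shared regions) and more than 1.5-fold higher in replicate 2 at 180 (16.9%, background 17.0%). These shares are near the background. Composition divided them: replicate 2 was the higher by that margin at 22.0% of lncRNA starts that were not CpG-rich and at 3.12% of those that were, and replicate 1 at 2.19% and 6.94%. Among coding promoters replicate 2 was the higher at 13.5% of those that were not CpG-rich and at 1.503% of those that were, and replicate 1 at 2.73% and 4.92%. Among regions away from starts the shares were 24.4% and 3.31% for replicate 2 and 2.53% and 6.31% for replicate 1. Its part in the heights was not tested.

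**Figure D5:**
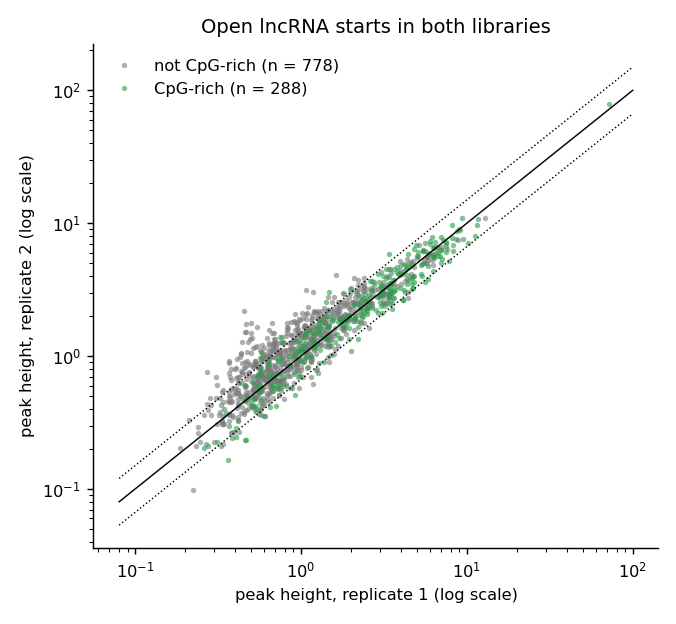
Height of each open lncRNA start in replicate 1 (x axis) and replicate 2 (y axis), both as depth-normalised signal on log scales. Green points are CpG-rich (288), grey points are not (778), the solid line marks equal heights and the dotted lines 1.5-fold differences. Grey points lie above the upper dotted line more often (22.0%) than green ones (3.12%), and the point at the upper right is Gm42418.

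The largest differences towards replicate 2 were at regions of middling height. 1700072G22Rik had 0.451 in replicate 1 and 2.17 in replicate 2, a log2 difference of 2.26, with a CTCF consensus under footprints in both. 4933401D09Rik had 0.467 and 1.76, and Gm13021 had 0.499 and 1.78. In the other direction they were at low regions, where 1700110I01Rik had 0.223 and 0.0975, 2410018L13Rik 0.361 and 0.165, and Gm4425 0.467 and 0.232.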

How the data were processed

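DNase-seq libraries of adrenal gland from male adult B6CASTF1/J mice were used, 1 per biological replicate. Per the file index text, the authors called peaks, footprints and positions of low false discovery rate per library on filtered mm10 alignments. The aligner and callers: not given in the sources used here. Of the 2 deposited peak lists per library the longer (98630 and 118249 peaks) was used, with the shorter (62110 and 72815) as an alternative. Peak height is a depth-normalised signal as deposited by the authors. In the deposited footprint lists the score was the same in every row, so only positions were used (228557 and 273271). Deposited q-values (false discovery rates) are listed only under 0.05.

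Overlapping peaks were merged (at least 1 bp) and placed against GENCODE vM21 starts, and the height of a region in a library is that of its tallest peak. Sequence came from the GRCm38 reference, whose coordinates are given from 1. Scripts used Python 3.11.15, pandas 2.3.3, numpy 2.4.6, scipy 1.17.1, pysam 0.24.0, samtools 1.23.1 and matplotlib 3.10.9, and were tested on simulated regions. With 1 group of 2 libraries there was no test. The members and lists were chosen with earlier results of these data known. Named were the 12 tallest and 5 lowest members, those at listed lncRNA genes (symbols in os by the 10 tallest), the 5 with most footprints, the 5 widest, the 3 with the largest height ratio in each direction, genes with 3 or more regions and the 10 nearest to adrenal genes within 50 kb; members outside this rule are named only for a footprinted consensus, after their values were seen.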

Additional observations from a re-analysis of the deposited data

How the results depend on the processing

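From 1066 regions and 10.3% of lncRNA genes, the shorter peak lists gave 700 regions, 7.15% of genes, a median height of 1.80 (1.18 as reported), 35.6% CpG-rich, 92.4% with a footprint in each library and 15.0% with heights over 1.5-fold apart (20.4% as reported). Peaks above the median height of their library gave 673, 6.77%, 1.84, 34.2%, 94.5% and 13.5%. A limit of 250 bp to a lncRNA start gave 8.41% of genes and 30.4% CpG-rich, and 1000 bp gave 13.4% and 23.9%. The share of genes was 9.60% at 2000 bp from coding starts, 9.49% with gene 5′ ends only and 9.60% without members near starts of other gene types. A 2-fold margin left 4.41% of heights apart. Leaving out either library ranged over 1455 to 1675 regions, 12.6 to 14.8% of genes, median heights of 0.770 to 0.840, 21.01 to 25.1% CpG-rich and 79.7 to 80.8% with a footprint. Of these, the moves over 1.5-fold were the 1675 regions without replicate 1 and the median height of 0.770 without replicate 2. A peak of fewer libraries was required there. The number of regions and the median height also moved over 1.5-fold with the shorter peak lists and with peaks above the median height. The difference between libraries has no value without one of them. The alternatives without Gm42418 and without members near starts of other gene types were chosen after seeing the data. Both limits of 500 bp and 1 kb and the peak threshold are choices, and a start without a peak is not shown to be closed. No paired analysis was possible because there was 1 group. The lowest regions had as few as 13 steps of height, and what depth allows there is unknown.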

Other observations

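Several listed lncRNA genes are annotated under another type than lincRNA or antisense and so were not counted, although their starts were accessible in both libraries. Among snoRNA hosts, Snhg15 had heights of 10.4 in replicate 1 and 8.40 in replicate 2, Snhg8 7.70 and 7.57, Gas5 6.71 and 7.75 at a region 52 bp from a protein-coding start, and Snhg5 6.17 and 5.56. These were taller than the 3 hosts counted in the report, Snhg6, Snhg12 and Snhg20, while Snhg17 had a lower mean of 2.90 (3.29 and 2.52). Snhg14 had no peak of both libraries. Mir22hg, a microRNA host, had 6.02 and 6.77, Dleu2 6.67 and 5.65, and Crnde 5.59 and 6.00. Foxd2os had 6.40 and 6.59 at a region 28 bp from a coding start. Among imprinted genes, Peg13 had 3.77 and 2.85 and Rian 0.595 and 0.990, and Firre, an X-linked nuclear RNA, had 1.43 and 1.70. Pantr2, Six3os1, Sox2ot and Hoxa11os had no peak of both libraries.

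Many lncRNA starts away from coding starts had a peak in 1 library only. These were 342 of the 1416 such regions with a peak of replicate 1 (24.2%) and 558 of the 1648 with a peak of replicate 2 (33.9%), against 30.6% and 42.7% of all regions. Their median heights were 0.393 and 0.472, below the 1.05 and 1.27 of those shared by both libraries.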
